A study of Mus musculus with 8 samples.

Results

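The heat shock proteins and DnaJ chaperones of the mouse kidney were examined as a family of 70 protein-coding genes among the 34450 genes of the deposited table. Members were taken by symbol alone: the Hspa, Hspb, Hspd, Hspe and Hsph genes with a number, the Hsp90 genes, and the Dnaja, Dnajb and Dnajc genes. Kidneys came from C57BL/6J mice aged 8 weeks and were taken 3 days after ischaemia-reperfusion injury (IRI), in which blood flow to the kidney is stopped and restored. Mice of the 4 hypoxia libraries breathed low oxygen ahead of the injury (hypoxic preconditioning), and those of the 4 normoxia libraries breathed normal oxygen. Every kidney was therefore injured, and no uninjured kidney was analysed here. The comparison asks how preconditioning changed chaperone transcripts in the injured kidney. The labels give no genetic change. Whether each library is a separate mouse is not stated there, so p-values cover just library-to-library spread, part of which may be technical. Tubule markers were present in the bulk RNA: all 8 proximal tubule, 5 thick ascending limb, 4 distal and 5 collecting duct markers had a mean of at least 0.5 FPKM.

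Levels are given as FPKM, fragment counts scaled to transcript length and library size, so they can be compared between genes. Ribosomal RNA took very different shares of the assigned fragments, from 13.5% to 72.5% over the 8 libraries and 21.5% to 67.4% in the hypoxia libraries. Depth, estimated from how the smallest values are spaced, was about 8720000 to 14600000 fragments in a library, with an estimated 1770000 to 8800000 in nuclear protein-coding genes. Chaperone levels also differed widely between libraries, and were mostly lower where the ribosomal share was higher, apart from normoxia library 5. Relative to each gene's mean over libraries, the median of the tested members was 1.32, 1.36, 0.716 and 0.681 in the hypoxia libraries 1 to 4. In normoxia libraries 5 to 8 it was 0.684, 0.98, 2.13 and 0.75, although library 5 had the lowest ribosomal share. Of 62 tested members 39 were highest in normoxia library 7 and 24 were lowest in normoxia library 5. Main values are therefore given also after TMM scaling, which equalises libraries on the bulk of their genes and moved the median log2 change over all genes by 0.15. Normoxia library 5 stood apart from its group in several of the genes described here.

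Chaperones bind proteins that have lost or not yet reached their fold. HSP70 proteins hold and release such clients in a cycle driven by ATP. DnaJ proteins, which share the J domain, bring clients to HSP70 and start its ATP hydrolysis, and nucleotide exchange factors reset it. HSP90 completes the folding of kinases and receptors, small heat shock proteins hold unfolded chains without ATP, and the chaperonin of HSP60 and HSP10 encloses them in mitochondria. Heat shock factor 1 drives the inducible cytosolic genes, while the unfolded protein response drives those of the endoplasmic reticulum (ER). Loss of ATP in an ischaemic tubule cell unfolds proteins, and chaperone induction after renal ischaemia is well known.

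No member passed an adjusted p under 0.05 in the values as deposited. Of the 62 members with a mean of at least 0.5 FPKM, 0 rose and 0 fell in limma with Benjamini-Hochberg adjustment, where 0.305% of all tested genes were higher and 0.602% lower after hypoxia. At an unadjusted p under 0.05, Dnajc28 and Dnajc12 were higher and Hspb1 was lower, that is 2 and 1 members, beside 2.52% and 6.84% of all tested genes. The median log2 change of the members was -0.09, close to the -0.14 of all tested genes, with 27 positive and 35 negative. The family's median thus lay 0.05 above that of all genes on the log2 scale. Its sign depended on the setting: with TMM scaling the median was 0.09, with 37 positive and 25 negative changes, and over all settings it ran from -0.27 to 0.24. The intervals were wide: the 95% interval included 0 for 59 members, and its median half-width was 1.22 on the log2 scale. It lay within 2 log2 units of 0 on both sides for 50 members, and within 1 unit for 1 member, so sizeable changes remained possible for most.

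**Figure D1:**
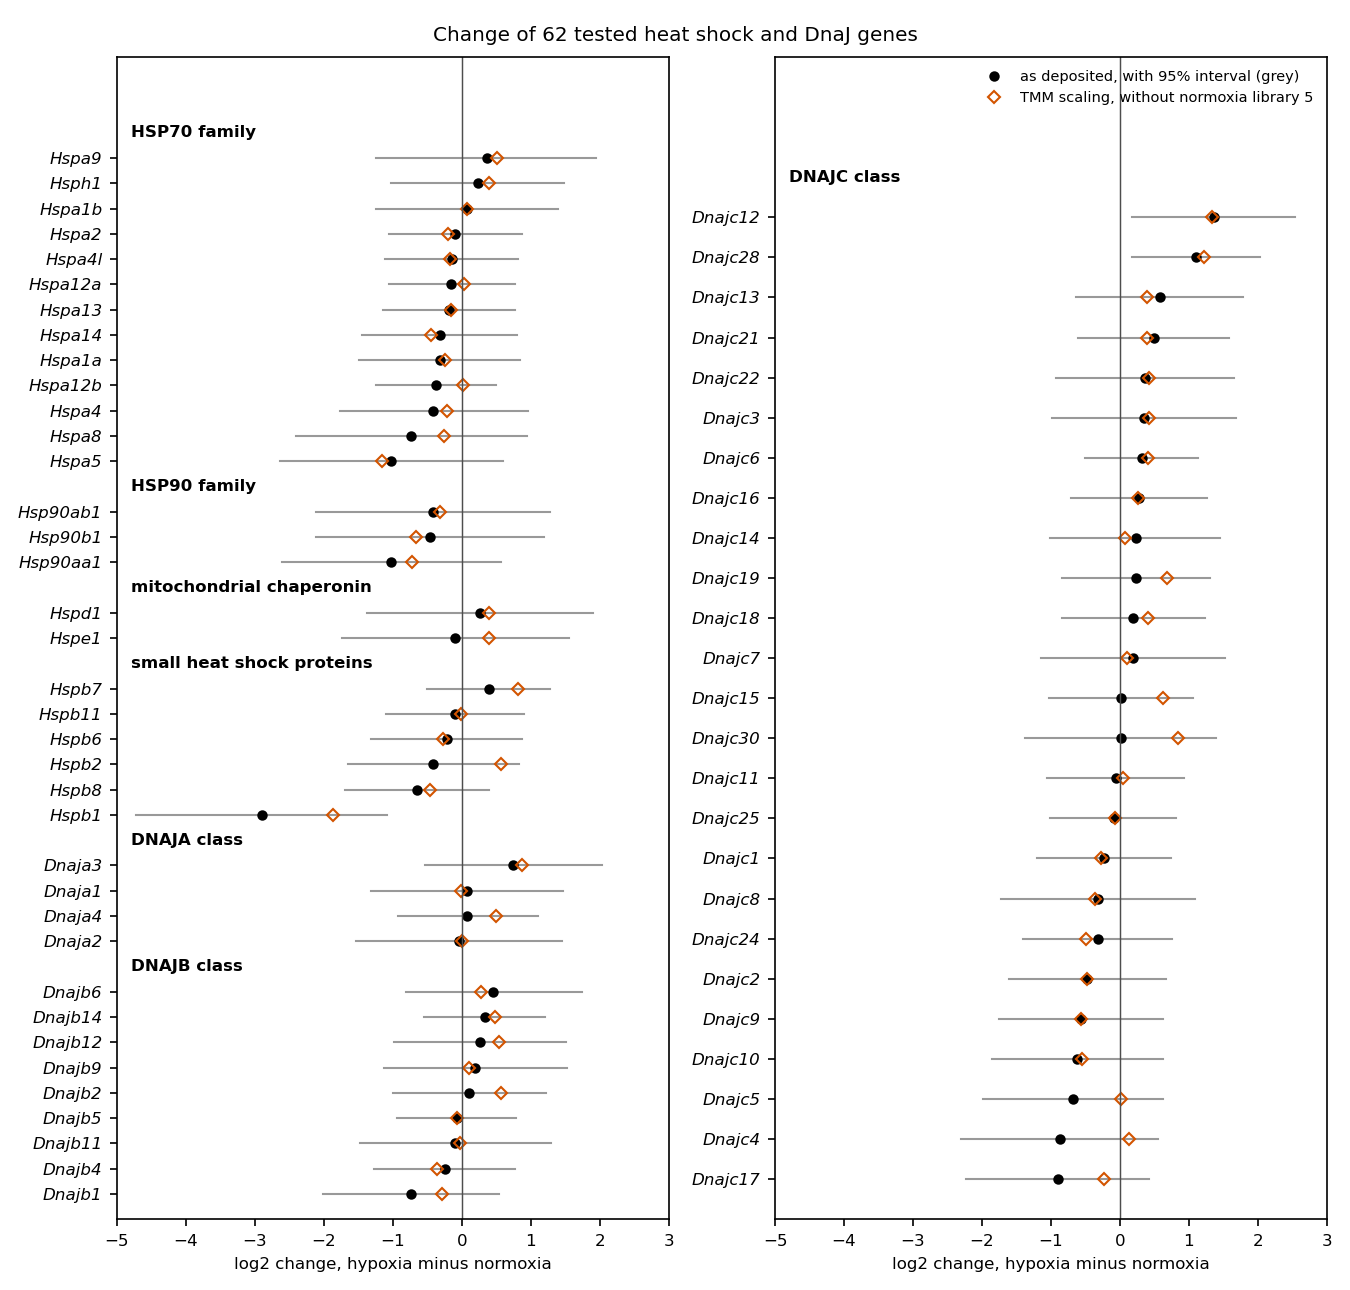
Log2 change (hypoxia minus normoxia) of the 62 tested members by family, with black points for deposited values, grey lines for their 95% intervals, and open diamonds for TMM scaling without normoxia library 5. Hspb1 lies furthest left at -2.90, and Dnajc12 and Dnajc28 furthest right at 1.36 and 1.11.

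With TMM scaling 2 members passed, both higher after hypoxia (Dnajc28 and Dnajc12), which is 3.23% of the tested members beside 1.18% of all genes. None was lower, beside 1.3%. When normoxia library 5 was also left out, 5 rose (8.06%, beside 5.74% of all genes) and 1 fell (1.61%, beside 5.17%). The 5 were Dnajc28, Dnajc12, Dnaja3, Dnajc19 and Dnajc30, all DnaJ genes, and the single fall was that of Hspb1. As deposited, Hspb1 was the only member whose groups did not overlap, beside 3.06% of all genes with hypoxia lower and 1.86% with hypoxia higher. After TMM scaling 9 members (14.5%) were higher in every hypoxia library than in any normoxia library, beside 6.88% of all genes, and 1 was lower, beside 6.45%. In other settings 0 to 2 members passed in either direction. Quantile normalization gave 2 higher and 1 lower, beside 1.94% and 2.42% of all genes, and library weights 2 and 1, beside 2.49% and 8.98%. With quantile normalization the 2 were again Dnajc28 and Dnajc12, but with library weights they were Dnajc28 and the small heat shock gene Hspb7, and the log2 change of Dnajc12 was 0.56 (limma adjusted p = 0.309). Removal of the length trend gave Dnajc28 and Dnajc12 higher and none lower, beside 1.38% and 1.74%. A common sum over protein-coding genes gave none higher and 1 lower, beside 0.318% and 1.23%. The result was likewise none higher and 1 lower without normoxia library 6 (0.408% and 1.43% of all genes) and without normoxia library 8 (0.227% and 1.63%). Each of these falls was that of Hspb1.

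Constitutive cytosolic chaperones were the most abundant members. Hsp90ab1 averaged 179.2 FPKM over the 8 libraries and Hspa8 170.1 FPKM, the only 2 members above 100. A further 13 lay between 10 and 100 FPKM, led by Hspb1 (64.8), Hspd1 (57.1), Hsp90b1 (50.3), Hspa9 (49.3), Hsp90aa1 (44.9), Hspe1 (44.4) and Hspa5 (36.4). The place of Hspb1 rested on normoxia library 5: over the other 7 libraries its mean was 27.2 FPKM, below those of the other 6 genes just named. Between 1 and 10 FPKM lay 42 members, among them most DnaJ genes. Another 5 lay between 0.5 and 1 FPKM. The remaining 8 had a mean under 0.5 FPKM and were not tested: Hspa1l, Hspb3, Hspb9, Dnajb3, Dnajb7, Dnajb8, Dnajb13 and Dnajc27. Of these Hspb3 and Dnajb8 were listed at 0 in all 8 libraries, which at this depth is not evidence of absence. The 70 genes together made up 0.639% to 0.978% of the FPKM of nuclear protein-coding genes in the hypoxia libraries and 0.572% to 1.22% in the normoxia libraries, so the groups overlapped.

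The stretch upstream of several members carries the motifs by which the heat shock and ER stress responses are known to act. The RefSeq promoter table (GRCm38.p6, 250 bases before to 50 after each start) held windows for 57 of the 70 genes. Windows were searched on both strands for the heat shock element of 3 units, GAANNTTC followed directly by NNGAA, for the pair GAANNTTC alone, which that element contains, and for the ER stress element, CCAAT and CCACG with NNNNNNNNN between them. The 3-unit element was in windows of Hspd1, Hspe1, Hsph1 and Dnajb6, or 8.11% of member windows, beside 0.603% of all 32851 windows. The inner pair was in windows of 13 members (20.3% of member windows, beside 7.86% of all), including Hspa1a, Hspa1b and Hspb1. The ER stress element was in those of Hspa5, Hsp90b1 and Dnajc3 (4.05%, beside 0.119%). A match describes the letters only. The 150 bases before the start are shown for the 3-unit element in the mitochondrial Hspe1. They are shown for the pair GAANNTTC alone in the inducible Hspa1b and in Hspb1, and for the ER element in 2 ER genes. Dnajc28 is shown as the member with the smallest adjusted p after TMM scaling. Capitals mark the heat shock or ER stress motifs, and all run 5′ to 3′ on the gene's strand.
Hspe1, chr1:55087998-55088147, plus strand: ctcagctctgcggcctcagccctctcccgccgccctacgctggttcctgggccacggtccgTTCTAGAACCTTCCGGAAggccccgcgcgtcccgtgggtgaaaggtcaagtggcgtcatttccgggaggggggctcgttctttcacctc
Hspa1b, chr17:34959239-34959388, minus strand: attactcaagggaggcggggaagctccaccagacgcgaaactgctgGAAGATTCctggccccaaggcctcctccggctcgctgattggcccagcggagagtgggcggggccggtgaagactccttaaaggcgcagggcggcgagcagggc
Hspb1, chr5:135887769-135887918, plus strand: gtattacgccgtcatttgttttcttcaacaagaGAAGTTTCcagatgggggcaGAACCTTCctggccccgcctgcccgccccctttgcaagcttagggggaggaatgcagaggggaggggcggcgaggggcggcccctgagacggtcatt
Hspa5, chr2:34771940-34772089, plus strand: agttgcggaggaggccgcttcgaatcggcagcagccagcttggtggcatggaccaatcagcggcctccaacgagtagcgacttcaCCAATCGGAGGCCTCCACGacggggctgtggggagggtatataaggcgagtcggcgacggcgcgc
Dnajc3, chr14:118937782-118937931, plus strand: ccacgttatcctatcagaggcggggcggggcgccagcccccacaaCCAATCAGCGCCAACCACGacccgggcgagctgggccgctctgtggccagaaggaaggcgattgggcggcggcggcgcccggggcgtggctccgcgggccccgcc
Dnajc28, chr16:91619000-91619149, minus strand: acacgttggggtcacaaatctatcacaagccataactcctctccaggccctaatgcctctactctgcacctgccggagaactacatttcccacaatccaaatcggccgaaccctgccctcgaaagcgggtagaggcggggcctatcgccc

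Hspb1, a small heat shock protein gene that holds unfolded proteins and guards actin filaments, showed the largest difference in the family. In the hypoxia libraries 1 to 4 it stood at 20.26, 19.72, 3.41 and 3.34 FPKM, and in the normoxia libraries 5 to 8 at 327.64, 28.9, 93.76 and 21.09 FPKM. Every normoxia library was above every hypoxia library, although library 8 was above hypoxia library 1 by less than 1 FPKM, and library 5 held far more than any other. The hypoxia mean was 11.7 ± 9.60 FPKM and the normoxia mean 117.8 ± 143.6 FPKM (SD, n = 4 each). The log2 change was -2.90 ± 0.88 (SE, limma adjusted p = 0.129), which does not pass. TMM scaling widened the gap between the nearest libraries: the highest hypoxia library then stood at 16.2 and the lowest normoxia library at 27.1 scaled FPKM. The log2 change was then -2.74 (adjusted p = 0.132), and -1.86 ± 0.43 (SE, adjusted p = 0.0309) when normoxia library 5 was left out as well. It also passed with quantile normalization (-2.54, adjusted p = 0.0176) and with a common sum over protein-coding genes (-3.08, adjusted p = 0.0184).

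Within a library, the ratio of Hspb1 to the constitutive Hspa8 needs no scaling between libraries. It was 0.0337 to 0.133 after hypoxia and 0.192 to 1.18 after normoxia, again without overlap. Of the 75-base words in Hspa8 transcripts 33.0% occur also in other genes, so the assignment of its fragments is less certain. Sums of marker lists for other cells and states were also compared. The 5 lists given here come from a longer set, and they did not all follow Hspb1 library by library. Lists for B cells, neutrophils, podocytes, endothelium and red cells, among others, were summed too and are not described. The summed FPKM of 5 smooth muscle markers was 17.7 to 44.0 after hypoxia and 49.0 to 189.1 after normoxia, with 2 of the 5 lower in every hypoxia library and none called. The 4 proliferation markers summed to 0.79 to 6.65 and 9.66 to 50.9 FPKM, with 4 of 4 changes negative and 3 called. The 5 fibroblast and pericyte markers summed to 17.4 to 38.7 and 42.3 to 166.8 FPKM, but only 3 of their 5 log2 changes were negative, 2 were positive, and none was called. The 5 macrophage and monocyte markers summed to 15.0 to 79.5 and 97.3 to 472.4 FPKM, with 5 of 5 changes negative and none called. The 6 tubular injury markers summed to 231.0 to 2386.2 FPKM after hypoxia and 1041.5 to 4352.0 FPKM after normoxia. Of their changes 6 of 6 were negative and 3 were called. Hspb1 peaked in normoxia library 5, whose proliferation (9.66), fibroblast and pericyte (42.3) and tubular injury (1041.5) sums were the lowest in normoxia. Its deposited smooth muscle (138.7) and macrophage and monocyte (401.1) sums were below those of library 7 and above those of libraries 6 and 8. After TMM scaling these sums were highest in library 5, at 164.3 and 475.1, beside 97.0 and 242.4 in library 7. The proliferation, fibroblast and pericyte, and tubular injury sums of library 5 stayed the lowest in normoxia, at 11.4, 50.1 and 1233.6. No marker in these 5 lists was at 0 in all libraries. Their part in the difference of Hspb1 was not tested. In bulk RNA, fewer cells of a type and less RNA per cell cannot be told apart. Hspb1 (ENSMUSG00000004951) lies on chromosome 5 from 135887919 to 135889563 on the plus strand (GRCm38, GENCODE M21), and 46.4% of the 75-base words in its transcripts occur also in another gene, among them the pseudogene Hsp25-ps1. That pseudogene was listed at 0.14 to 0.73 FPKM after hypoxia and 0.36 to 5.26 FPKM after normoxia, highest in normoxia library 5 like Hspb1 itself.

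**Figure D2:**
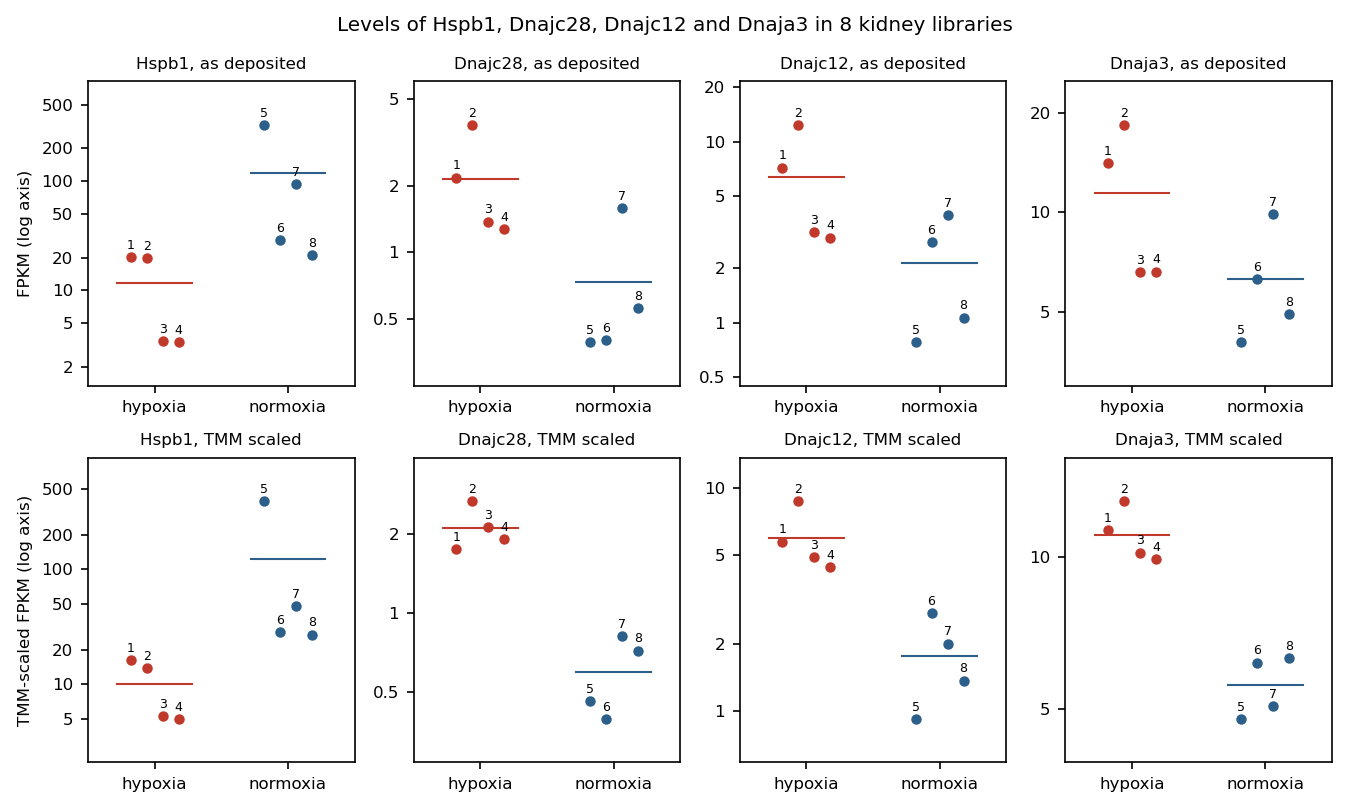
FPKM (log axes) of Hspb1, Dnajc28, Dnajc12 and Dnaja3 in each library, as deposited above and TMM scaled below, with points numbered by library and lines at group means. After scaling, the groups of all 4 genes do not overlap, and Hspb1 in normoxia library 5 reaches 388.1.

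The other tested small heat shock genes were low, and none passed in the values as deposited. Hspb8, whose product works with Bag3 in clearing misfolded proteins, had a hypoxia mean of 1.56 ± 0.882 FPKM and a normoxia mean of 2.96 ± 2.36 FPKM (SD, n = 4 each), with 6.46 FPKM in normoxia library 7. Its log2 change was -0.65 ± 0.51 (SE, limma adjusted p = 0.864). Hspb2 held 10.5 FPKM in normoxia library 5 and 0.47 to 2.42 FPKM elsewhere. The muscle-enriched Hspb6 and Hspb7 ranged from 0.46 to 4.52 FPKM and from 0.16 to 1.42 FPKM over the 8 libraries. Hspb7 had a log2 change of 0.39 ± 0.43 (SE, limma adjusted p = 0.948), and passed only with library weights (1.05 ± 0.23, SE, adjusted p = 0.00671). With TMM scaling without normoxia library 5 it was 0.82 (adjusted p = 0.0786), and its smallest value rested on about 4 fragments. Hspb11, which despite its name encodes a subunit of the intraflagellar transport complex of cilia, ranged from 0.43 to 3.35 FPKM.

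The stress-inducible HSP70 genes were low and overlapped between groups. Hspa1a stood at 3.32, 3.59, 5.55 and 1.49 FPKM in hypoxia libraries 1 to 4 and at 2.47, 4.8, 10.06 and 2.25 FPKM in normoxia libraries 5 to 8. Hspa1b, its near copy, stood at 12.67, 7.93, 9.53 and 5.5 FPKM and at 4.07, 8.96, 20.76 and 5.44 FPKM in the same order. Both were highest in normoxia library 7, and the remaining libraries were mixed. The log2 changes were -0.32 ± 0.57 for Hspa1a and 0.07 ± 0.64 for Hspa1b (SE, limma adjusted p = 0.999 for each). Their 95% intervals ran from -1.49 to 0.85 and from -1.25 to 1.40. These 2 genes share 61.7% and 55.8% of their 75-base words with other genes, each other among them, and 296 of 300 bases of their promoter windows are identical. The split of fragments between them is therefore uncertain. Their sum was 6.99 to 16.0 FPKM after hypoxia and 6.54 to 30.8 FPKM after normoxia.

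The constitutive Hspa8, which folds new proteins and uncoats clathrin vesicles, was 6.72 to 42.3 times that sum over the 8 libraries. It stood at 152.08, 165.56, 101.28 and 71.94 FPKM after hypoxia and at 276.85, 150.35, 342.62 and 100.44 FPKM after normoxia. Normoxia libraries 5 and 7 were the highest, and the groups overlapped. The log2 change of Hspa8 was -0.74 ± 0.81 (SE, limma adjusted p = 0.948). Among the exchange factors of HSP70, Hsph1 ranged from 5.31 to 9.63 FPKM after hypoxia and from 3.17 to 14.12 FPKM after normoxia, with a log2 change of 0.23 ± 0.61 (SE, adjusted p = 0.999). Its relative Hspa4 overlapped likewise, at 7.54 to 18.22 and 11.69 to 26.7 FPKM.

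Both cytosolic HSP90 genes were lower on average after hypoxia without passing the test. The inducible Hsp90aa1 stood at 54.34, 34.66, 12.75 and 19.94 FPKM in hypoxia libraries 1 to 4 and at 53.79, 38.52, 106.51 and 38.66 FPKM in normoxia libraries 5 to 8. Hypoxia library 1 alone reached into the normoxia range. Its log2 change was -1.02 ± 0.77 (SE, limma adjusted p = 0.847). The constitutive Hsp90ab1 stood at 204.31, 215.36, 92.46 and 83.43 FPKM and at 118.55, 157.76, 424.3 and 137.26 FPKM, with a log2 change of -0.42 ± 0.82 (SE, adjusted p = 0.999). Within each library, the ratio of Hsp90aa1 to Hsp90ab1 was 0.138 to 0.266 after hypoxia and 0.244 to 0.454 after normoxia, with overlap only between hypoxia library 1 and normoxia libraries 6 and 7. Of the words in Hsp90aa1 transcripts 42.8% occur in other genes, Gm12346 among them. Among the DnaJ partners of inducible HSP70, Dnajb1 ranged from 2.63 to 7.74 FPKM after hypoxia and from 3.57 to 16.36 FPKM after normoxia (log2 change -0.73 ± 0.62, SE, adjusted p = 0.886). Dnaja1 showed a log2 change of 0.08 ± 0.67 (SE, adjusted p = 0.999). Of the 13 genes listed as heat-inducible and cytosolic, 4 had positive and 9 negative changes, with a median of -0.32 beside -0.14 for all genes and none called. Constitutive Hspa8 and Hsp90ab1 are on that list.

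**Figure D3:**
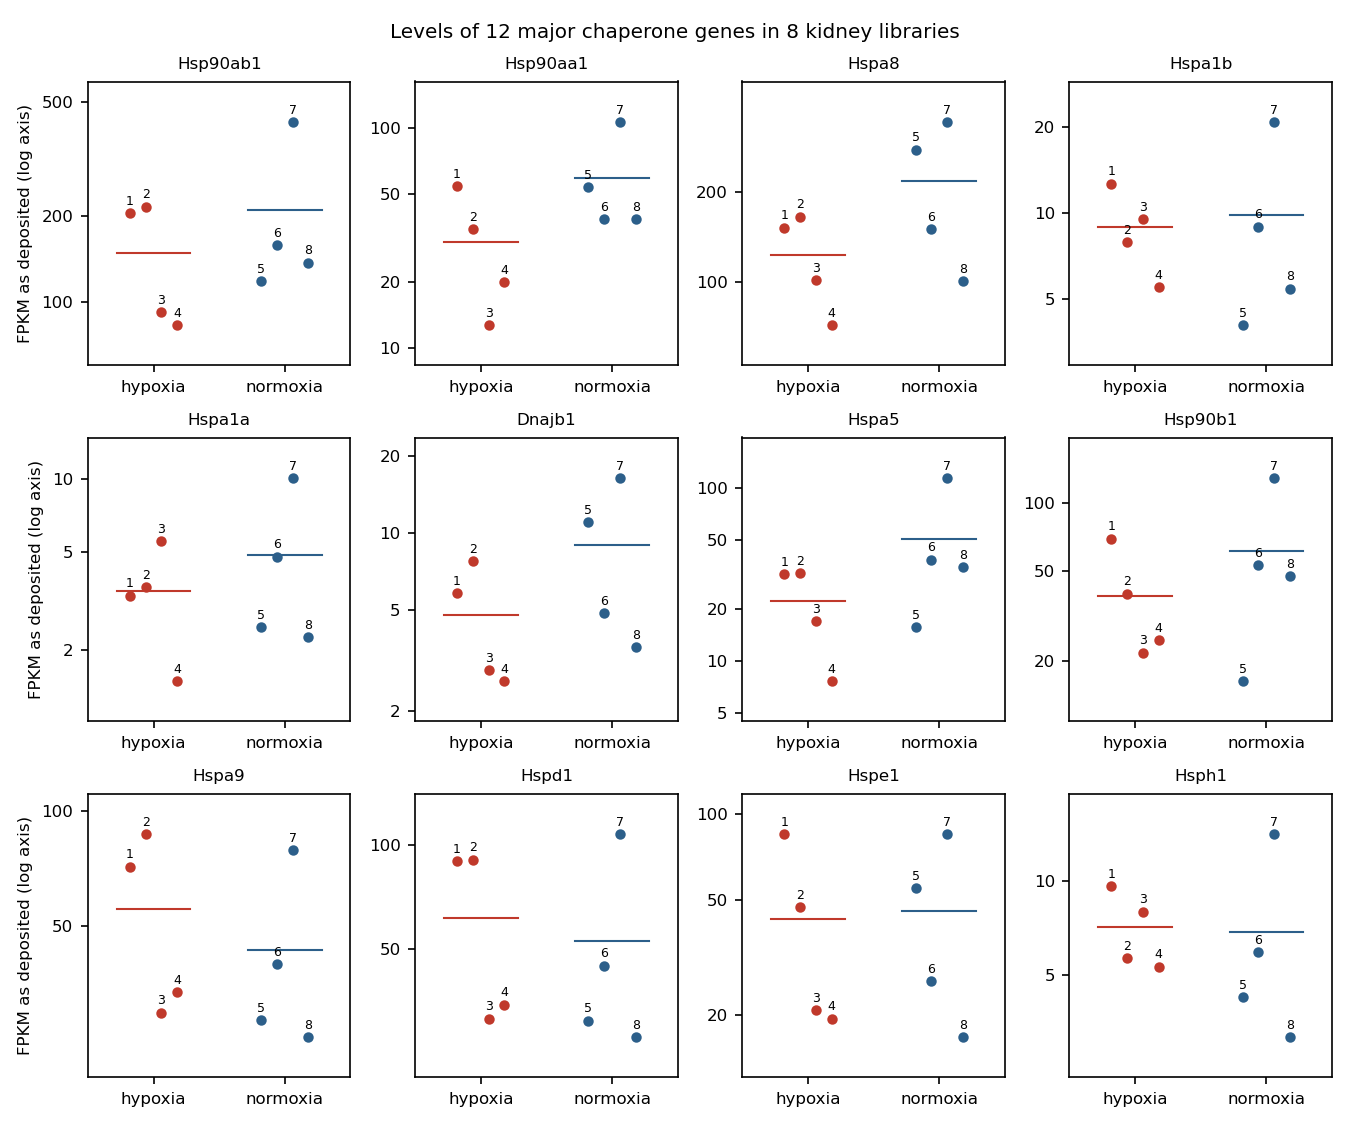
FPKM as deposited (log axes) of 12 major chaperone genes in each library, with points numbered by library and lines at group means. Normoxia library 7 is highest in 11 of the 12 panels (Hspa9 is highest in hypoxia library 2), and the groups overlap in every panel.

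Chaperones of the ER did not move as a group. Of 12 such genes none passed, 5 changes were positive and 7 negative, and the median was -0.09. Hspa5, which encodes BiP, the HSP70 of the ER and its stress sensor, stood at 31.71, 32.07, 16.92 and 7.69 FPKM after hypoxia and at 15.63, 38.43, 113.69 and 34.88 FPKM after normoxia. Normoxia library 5 fell within the hypoxia range, and the other 3 normoxia libraries were above every hypoxia library. The log2 change was -1.02 ± 0.79 (SE, limma adjusted p = 0.855). After TMM scaling without normoxia library 5 it was -1.16 ± 0.31 (SE, adjusted p = 0.0503), just short of the threshold. Hsp90b1, the HSP90 of the ER known as GRP94, overlapped more widely, at 69.58, 39.77, 21.8 and 24.85 FPKM after hypoxia and 16.38, 53.0, 129.02 and 47.67 FPKM after normoxia. Its log2 change was -0.46 ± 0.80 (SE, adjusted p = 0.999). Dnajc10, an ER reductase that helps remove wrong disulphides, had a log2 change of -0.62 ± 0.60 (SE, adjusted p = 0.92). Dnajc3, a BiP co-chaperone whose window also holds the ER stress element, lay on the other side of 0. It stood at 16.34, 18.13, 7.08 and 8.37 FPKM after hypoxia and 5.38, 8.89, 16.79 and 7.79 FPKM after normoxia. After TMM scaling its hypoxia libraries were all above its normoxia libraries, as were those of the ER membrane genes Dnajb14 and Dnajc16.

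Of 9 mitochondrial chaperones none passed in the values as deposited, and 6 changes were positive. Hspa9, the mitochondrial HSP70 that pulls proteins through the inner membrane, stood at 71.47, 86.96, 29.63 and 33.47 FPKM after hypoxia and at 28.3, 39.72, 78.91 and 25.6 FPKM after normoxia. The groups overlapped through normoxia libraries 6 and 7. Its log2 change was 0.36 ± 0.78 (SE, limma adjusted p = 0.999). After TMM scaling Hspa9 averaged 53.6 ± 6.84 scaled FPKM after hypoxia and 36.5 ± 3.87 after normoxia (SD, n = 4 each), without overlap, and the adjusted p was 0.436. Dnaja3, its DnaJ partner, stood at 14.1, 18.37, 6.57 and 6.6 FPKM after hypoxia and at 4.03, 6.26, 9.87 and 4.9 FPKM after normoxia. The log2 change was 0.75 ± 0.62 (SE, adjusted p = 0.878), and 0.87 ± 0.18 (SE, adjusted p = 0.0207) after TMM scaling without normoxia library 5. TMM scaling with all 8 libraries gave 11.1 ± 1.36 and 5.57 ± 0.767 scaled FPKM (SD, n = 4 each), without overlap.

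The chaperonin pair Hspd1 (HSP60) and Hspe1 (HSP10), whose genes lie side by side on chromosome 1 and whose windows share the heat shock element printed above, did not differ beyond its spread. Hspd1 stood at 89.9, 90.68, 31.31 and 34.4 FPKM after hypoxia and 30.88, 44.57, 107.71 and 27.7 FPKM after normoxia, with a log2 change of 0.27 ± 0.80 (SE, limma adjusted p = 0.999). Of the 75-base words in Hspd1 transcripts 31.0% occur also in other genes. Hspe1 stood at 84.68, 47.21, 20.71 and 19.36 FPKM and at 55.09, 26.19, 84.84 and 16.76 FPKM, giving -0.09 ± 0.80 for its log2 change (SE, adjusted p = 0.999). With TMM scaling the log2 change of Hspe1 was 0.10, so its direction depended on the scaling. The import motor gene Dnajc19 (log2 change 0.23 as deposited) and the respiratory chain-associated Dnajc30 (0.01) passed only with TMM scaling without normoxia library 5, at 0.68 (adjusted p = 0.0492) and 0.84 (adjusted p = 0.0485). Both were chosen after their values were seen. Of the 75-base words in Dnajc30 transcripts 22.8% occur also in another gene, Bud23. Normoxia library 5 held 21.23 FPKM of Dnajc30 and the other normoxia libraries 2.1 to 7.73 FPKM. Dnajc4 showed a similar excess, with 37.55 FPKM in that library and 2.17 to 7.74 FPKM in the other 7. Its log2 change was -0.87 ± 0.69 (SE, adjusted p = 0.864), and 0.14 after TMM scaling without normoxia library 5. In that setting the changes of all 9 mitochondrial members were positive, with a median of 0.51 beside 0.03 for all genes. As deposited the median was 0.02 beside -0.14.

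Dnajc28 and Dnajc12 had the smallest p among the DnaJ genes. Dnajc28 stood at 2.19, 3.8, 1.38 and 1.28 FPKM in hypoxia libraries 1 to 4 and at 0.39, 0.4, 1.59 and 0.56 FPKM in normoxia libraries 5 to 8. Normoxia library 7 alone reached into the hypoxia range. The log2 change was 1.11 ± 0.45 (SE, limma adjusted p = 0.359) as deposited. With TMM scaling the hypoxia libraries held 1.75 to 2.67 and the normoxia libraries 0.394 to 0.816 scaled FPKM, and the log2 change was 1.26 ± 0.23 (SE, adjusted p = 0.0299). The gene was low: the smallest library value rested on roughly 14 fragments. Dnajc28 (ENSMUSG00000039763) lies on chromosome 16 from 91614254 to 91619026 on the minus strand.

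Dnajc12, whose product is a co-chaperone of the aromatic amino acid hydroxylases, stood at 7.19, 12.38, 3.17 and 2.95 FPKM after hypoxia and at 0.78, 2.78, 3.92 and 1.07 FPKM after normoxia. Only normoxia library 7 reached above the lowest hypoxia library. The log2 change was 1.36 ± 0.57 (SE, limma adjusted p = 0.406) as deposited, and 1.53 ± 0.32 (SE, adjusted p = 0.043) with TMM scaling, where the groups did not overlap (4.43 to 8.69 and 0.924 to 2.74 scaled FPKM). Tubule marker sums were also compared, and they did not all follow these 2 genes library by library. The 4 distal convoluted and connecting tubule markers summed to 49.8 to 93.0 FPKM after hypoxia and 12.1 to 30.7 FPKM after normoxia, with 2 of 4 called higher. The 5 thick ascending limb markers summed to 385.9 to 1737.7 and 142.5 to 537.0 FPKM, with 2 of 5 called higher. The 8 proximal tubule markers overlapped, at 569.2 to 1012.4 and 114.3 to 1733.5 FPKM, with none called, and normoxia library 5 held the highest sum. As deposited, that library held the lowest value of both Dnajc28 and Dnajc12. The 5 collecting duct markers summed to 66.9 to 244.6 and 22.9 to 99.9 FPKM, with 5 of 5 changes positive and none called. Normoxia library 5 again had the highest sum of its group. No marker of these lists was at 0 in all libraries, and their part in the 2 differences was not tested.

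Most other DnaJ genes could not be told apart between the groups. Among the 25 tested Dnajc genes 14 changes were positive and 11 negative. Dnajc17, a splicing-associated member, ranged from 0.19 to 4.02 FPKM after hypoxia and from 0.61 to 8.2 FPKM after normoxia (log2 change -0.90 ± 0.64, SE, limma adjusted p = 0.82), and its smallest value rested on about 2 fragments. Dnajc5, the cysteine string protein gene of vesicle release, held 12.82 FPKM in normoxia library 5 and 0.95 to 6.75 FPKM elsewhere (log2 change -0.68 ± 0.63, SE, adjusted p = 0.911). Dnajc18 and Dnajc22 joined the genes without overlap after TMM scaling. Dnajc13, an endosomal DnaJ gene, stood at 5.16 to 7.75 FPKM in 7 libraries and at 1.31 FPKM in normoxia library 5. Genes described here by ranges alone, Hspb7, Dnajc3, Clpb and the DnaJ genes named for TMM scaling only were chosen after their values were seen.

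The make-up of the chaperone pool was also compared within each library, where no scaling between libraries enters. Hspb1 took 1.84%, 1.80%, 0.696% and 0.75% of the FPKM of the 70 genes in hypoxia libraries 1 to 4, and 28.5%, 3.66%, 4.78% and 3.45% in normoxia libraries 5 to 8. Every normoxia share was above every hypoxia share. Since a share falls when another gene takes more, the rest was computed over the 69 genes other than Hspb1. Genes listed as heat-inducible and cytosolic then averaged 45.4% ± 3.28 after hypoxia and 53.2% ± 3.63 after normoxia (SD, n = 4 each). The groups did not overlap, and hypoxia library 3 was closest to the normoxia group. That list includes the constitutive Hspa8 and Hsp90ab1, so the share does not measure inducible genes alone. Of the FPKM of all 70 genes, Hspa8 took 13.8% to 20.7% after hypoxia and 16.4% to 24.1% after normoxia. Hsp90ab1 took 18.6% to 19.6% and 10.3% to 22.4%, and both overlapped. In the FPKM of the 69 genes, mitochondrial chaperones took 26.4%, 25.4%, 20.5% and 24.0% after hypoxia and 22.8%, 17.1%, 16.5% and 14.2% after normoxia. Normoxia library 5 alone lay within the hypoxia range. ER chaperones took 14.1% to 15.6% after hypoxia, and 7.44% in normoxia library 5 but 17.8% to 20.1% in the other 3 normoxia libraries. The mitochondrial Hspa9 relative to the cytosolic Hspa8 was 0.47, 0.525, 0.293 and 0.465 after hypoxia and 0.102, 0.264, 0.23 and 0.255 after normoxia, without overlap. The words that Hspa8 shares with other genes limit this ratio as well. The ER Hspa5 relative to Hspa9 was 0.23 to 0.571 after hypoxia, 0.552 in normoxia library 5 and 0.968 to 1.44 in the other normoxia libraries. These pairs and shares were chosen after the values were seen and are given without a test.

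**Figure D4:**
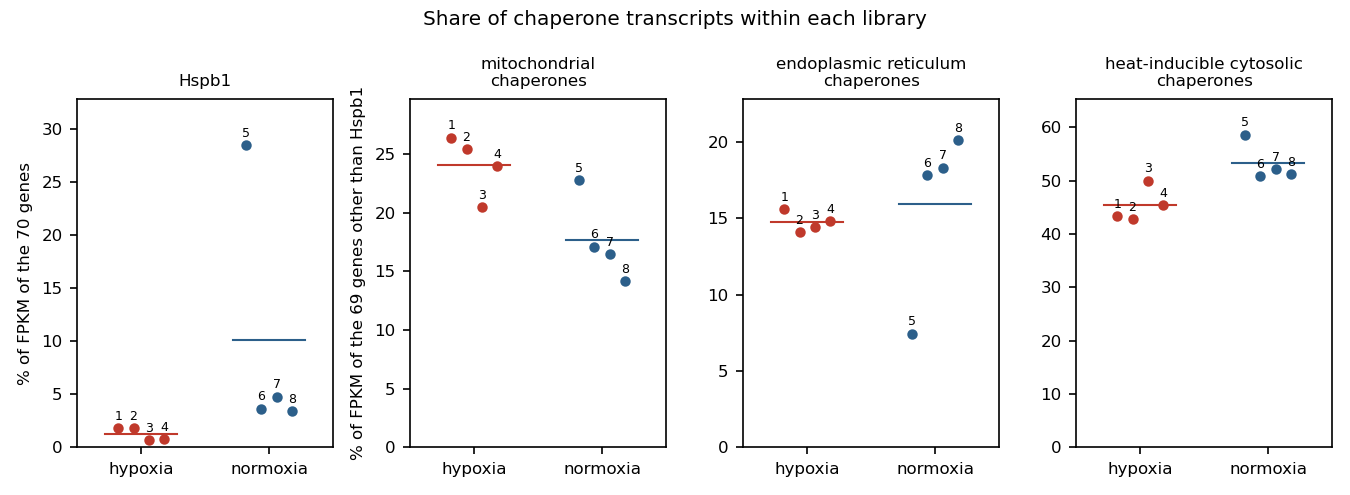
Share of the FPKM of the 70 genes taken by Hspb1, and share of the FPKM of the other 69 genes taken by mitochondrial, ER and heat-inducible cytosolic chaperones, in each library (points numbered by library, lines at group means). The Hspb1 and heat-inducible shares do not overlap between groups, and normoxia library 5 departs from its group in the ER panel at 7.44%. The heat-inducible list includes the constitutive Hspa8 and Hsp90ab1.

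The partners and regulators of these chaperones showed no called change as deposited. Of 54 tested genes in a list of co-chaperones, exchange factors, chaperonin and prefoldin subunits, ER and mitochondrial relatives and heat shock factors, 0 rose and 0 fell in limma, and 0 had an unadjusted p under 0.05. The median log2 change was -0.35, beside -0.14 for all genes, with 12 positive and 42 negative. With TMM scaling without normoxia library 5 it was -0.07, beside 0.03, with 24 positive and 29 negative. Hsf1, the master regulator of the heat shock response, stood at 2.68, 2.25, 1.07 and 1.12 FPKM after hypoxia and at 1.43, 1.31, 3.49 and 1.03 FPKM after normoxia, with a log2 change of 0.02 ± 0.47 (SE, adjusted p = 0.999). Bag3, an inducible exchange factor, had a log2 change of 0.09 ± 0.62 (SE, adjusted p = 0.999). The 4 genes with the smallest p were the exchange factor gene Hspbp1 (-1.40 ± 0.79, SE, adjusted p = 0.669), the HSP90 kinase adaptor Cdc37 (-1.07 ± 0.72, adjusted p = 0.784), the myosin chaperone Unc45a (-0.91 ± 0.61, adjusted p = 0.788) and Bag4 (0.66 ± 0.47, adjusted p = 0.818). Normoxia library 5 held the most of Hspbp1, Cdc37 and Unc45a, at 76.48, 42.31 and 13.84 FPKM. Without it, and with TMM scaling, the log2 changes of these 3 genes were -0.18, -0.23 and -0.22. In that setting 1 of the partners was called higher (Clpb, a mitochondrial disaggregase gene, 0.56, adjusted p = 0.0467) and none lower, or 1.89% of 53 tested, beside 5.74% of all genes.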

How the data were processed

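RNA was extracted with Trizol from flash-frozen kidney and made into stranded mRNA libraries, per the labels' protocols. The authors deposited 1 table of FPKM values for all 8 libraries, per the file headers. The submitters' processing notes name HISAT2, StringTie and edgeR, while the build and annotation they used were not given in the sources used here. Symbols, exon lengths and coordinates came from GENCODE M21 (GRCm38), which matched all 34450 identifiers, and of 72 annotated genes that fit the name rule 2 (Dnajc5b and Dnajc5g) were not analysed here. Values were tested as log2(FPKM + 0.5) for the 14444 genes with a mean of at least 0.5 FPKM, by limma 3.58.1 in R 4.3.3 with a trended prior variance and Benjamini-Hochberg adjustment at 0.05. Changes are hypoxia minus normoxia, and this scale understates the change of low genes. Depth was estimated from the spacing of the smallest values and is approximate. TMM factors (trimming 30% of ratios and 5% of levels) were used only to scale FPKM. Alternatives were other pseudocounts, filters, scalings and variance models, and leaving out each library. Genes given with a test by rule were the 12 members and 4 partners with the smallest p, with 16 fixed by name. Hspb7, Dnajc19, Dnajc30 and Clpb are given with a test as well, and were chosen after their values were seen. The members and lists were chosen with earlier results of these data known. Sequences are from RefSeq (GRCm38.p6).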

Additional observations from a re-analysis of the deposited data

Results flagged for a closer look

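Values as deposited were checked with Dixon's test in 56 groups of 4 libraries, 1 for each of 28 genes and condition. In 7 groups a library's gap to its neighbour passed the 95% limit, where chance gives about 1 in 20. The groups share the same libraries and are not independent, so that rate is a rough guide. All 7 were high values in normoxia. Normoxia library 7 stood apart for Dnajc28 (1.59 FPKM), Hspb8 (6.46), Dnajc10 (14.88), Hsp90ab1 (424.3) and Hsf1 (3.49). The other 3 normoxia libraries held 0.39 to 0.56 FPKM of Dnajc28 and 118.55 to 157.76 FPKM of Hsp90ab1. As deposited, 39 of 62 tested members were highest in library 7. After TMM scaling it held 217.7 of Hsp90ab1 and 0.816 of Dnajc28, beside 140.4 to 176.2 and 0.394 to 0.719 in the other normoxia libraries. For Hspb8, Dnajc10 and Hsf1 it held 3.31, 7.63 and 1.79, beside 1.44 to 2.63, 5.1 to 7.62 and 1.29 to 1.69. Dixon's test was not repeated on scaled values. Normoxia library 5 stood apart for the mitochondrial Dnajc4 (37.55 FPKM) and the exchange factor gene Hspbp1 (76.48 FPKM), of which the other 3 held 2.7 to 7.74 and 2.79 to 12.41 FPKM.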

How the results depend on the processing

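The count of members higher after hypoxia, 0 as deposited, was 2 with TMM scaling, quantile normalization, the length trend removed or library weights, and 5 with TMM scaling without normoxia library 5. The count lower, also 0, was 1 with quantile normalization, a common sum over protein-coding genes, library weights or TMM scaling without normoxia library 5. Leaving out 1 library gave 0 higher each time and 0 to 1 lower, the 1 being Hspb1 without normoxia library 6 or 8. The median log2 change of the members, -0.09, ran from -0.27 to 0.24, with a change of sign. It moved by less than the spread between deposited library medians, 0.58 on the log2 scale. That spread includes differences of scale between libraries, so the comparison says little about stability. The count of partners higher was 1, from 0, with TMM scaling without normoxia library 5. Over all genes, 44 higher and 87 lower became 171 and 188 with TMM scaling. The cause of these shifts was not tested. Of 557 combinations of 28 named genes with a setting, 504 kept direction and side of the threshold, 16 passed only in the alternative and 37 changed sign, none of them passing. With a common sum the log2 change was -0.11 for Hspa1b and Dnaja1, -0.15 for Hsf1 and -0.10 for Bag3. With library weights it was -0.13 for Hspa1b, 0.16 for Hspe1, -0.21 for Dnaja1 and -0.15 for Bag3. For Hspe1 it was 0.10 with TMM scaling, 0.26 with quantile normalization and 0.20 with the length trend removed. With TMM scaling without normoxia library 5 it was 0.14 for Dnajc4, 0.02 for Dnajc5, 0.39 for Hspe1 and -0.01 for Dnaja1. Leaving out 1 library in turn gave -0.57 to 0.08 for Hspa1a, -0.23 to 0.51 for Hspa1b, -0.04 to 0.63 for Hsph1, -0.96 to 0.02 for Hsp90b1, -0.50 to 0.30 for Hspe1, -0.31 to 0.56 for Dnaja1, -0.17 to 0.31 for Hsf1 and -0.22 to 0.53 for Bag3. No paired analysis was possible because the library numbers of the groups do not repeat. Ribosomal RNA took up to 72.5% of fragments, which leaves fewer fragments for low genes.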
